A study of Homo sapiens with 36 samples.

Results

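The cytosolic ribosomal proteins are the proteins of the 60S (large) and 40S (small) ribosomal subunits. Their genes were taken by symbol: RPL or RPS plus a number with an optional A, L or X, and the stalk proteins RPLP0, RPLP1 and RPLP2 and the small subunit protein RPSA. Genes for RPS6 kinases, Y-linked genes and pseudogenes were left out, and only probe sets with 1 gene symbol were used. The table held 56 such genes among 19775 genes in all, 35 of the large and 21 of the small subunit, read by 117 probe sets. A further 25 human genes that meet the name rule, among them RPLP0, RPL5, RPSA and RPS27A, were not analysed here. Of the 56, 54 were tested: 52 reached the minimum level in all 12 groups, RPL39L in 5 pseudopod and 5 cell body groups, and RPLP2 in 5 pseudopod groups and 0 cell body groups. RPL36A and RPL3L reached it in none.

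Ribosomes translate messenger RNA into protein, and each holds 1 copy of nearly every ribosomal protein, so the genes are known to be expressed together at a high level. Their messenger RNAs begin with a run of pyrimidines at the 5′ end, the TOP (terminal oligopyrimidine) tract. Through this tract LARP1 and the growth-regulating kinase mTORC1 are known to hold them back from translation or release them together. In migrating cells, messenger RNAs of ribosomal proteins and ribosomes themselves have been described in protrusions, the membrane extensions with which a cell moves.

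The samples were the pseudopod fraction (PS) and the cell body fraction (CB) of 6 human cancer cell lines, with 3 arrays of each fraction and line, 36 Affymetrix HG-U133 Plus 2.0 arrays in all. The lines come from glioblastoma (U87, U251), fibrosarcoma (HT1080), prostate carcinoma (DU145) and breast carcinoma (MDA231); the origin of MDA435 is disputed, as it is known to express melanocyte genes. The labels give no treatment or genetic change for any group. All cells were in 10% fetal bovine serum and spent 24 h on a porous filter, after which its underside (pseudopods) and upper side (cell bodies) were scraped off. U87, U251 and HT1080 were in DMEM and the other lines in RPMI-1640, so medium and line cannot be told apart, while the fractions of a line shared their medium. The labels do not say whether the 3 arrays of a group came from separate cultures, so p-values measure only the spread between these arrays, which may be technical. A pseudopod scraping is a piece of a cell, so a higher value means a larger share of the labelled RNA, and not more copies per cell.

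The lines showed the markers of their labels only in part. In MDA435, SOX10 (884 to 2450 intensity units) and S100B (1668 to 3325) were high in all 6 arrays, whereas the melanosome gene PMEL (2.6 to 36.2) was not. The astrocyte gene GFAP was at 2.4 to 13.2 in U87 and 115 to 230 in U251. The glial and neural genes SOX2 (6.8 to 18.1), GPM6A (15.1 to 21.3) and PDGFRA (25.6 to 217) were also low in U87. All 3 were high in U251, at 1281 or more. The epithelial keratin KRT19 was at 2406 to 3550 in DU145, but KRT18 was also high in U251 (1652 to 2468) and HT1080 (1216 to 2066). The mesenchymal gene VIM was at 2673 or more in every line. The epithelial gene CDH1 was uneven between arrays of a group. It was at 2.2 to 13.7 in 4 MDA231 arrays but at 1299 in PS replicate 3 and 1778 in CB replicate 2. In MDA435 it was at 33.2 in PS replicate 3 and 32.8 in CB replicate 1 and at 922 to 2463 in the other 4 arrays. In MDA231, SOX10 (11.4 to 29.5) and S100B (1.3 to 2.7) were low in all 6 arrays, unlike in MDA435. What made CDH1 uneven between the arrays of MDA231 and of MDA435 was not tested. DU145 was uneven to a smaller degree. Its CDH1 was at 319 in PS replicate 1 and 857 in CB replicate 3 and at 1350 to 2237 in the other 4 arrays. The fractions were distinct: 45S ribosomal RNA precursor (RNA45SN5), a nucleolar RNA, was at 4.7 to 408 in pseudopods and 171 to 1365 in cell bodies. All 5 endoplasmic reticulum markers were lower in pseudopods (median log2 change -1.38). Of 5 RNAs known to localise to protrusions, 4 were higher (RAB13 by 0.69 ± 0.09, SE) and 1 was lower.

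Of the 56 genes, 48 have an entry among the annotated starts of RefSeq (GRCh38.p14), and 34 of these (70.8%) have a start at a C that is followed by at least 4 bases that are C or T, against 5.14% of all 27305 genes with an entry. The windows below are 15 bases before and 15 from the start on, for the genes at the top and the bottom of the pseudopod change that are described further on. Capitals mark the pyrimidine tract that overlaps the start, and a window without capitals has none.
RPL11 (chr1:23691791-23691820, plus strand): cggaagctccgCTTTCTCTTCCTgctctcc
RPL36 (chr19:5690280-5690309, plus strand): ccgcgcggcgccagCCCTTCCgccacggcc
RPL10L (chr14:46651767-46651796, minus strand): caggcgtagttaagagagcgcattttgact
RPL32 (chr3:12841551-12841580, minus strand): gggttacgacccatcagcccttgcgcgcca
RPL10A (chr6:35468386-35468415, plus strand): tgcgcaagacatgctagtctcttttccggt
RPS16 (chr19:39435935-39435964, minus strand): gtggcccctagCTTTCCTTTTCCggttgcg
RPS4X (chrX:72277234-72277263, minus strand): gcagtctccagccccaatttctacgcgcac
RPLP1 (chr15:69452803-69452832, plus strand): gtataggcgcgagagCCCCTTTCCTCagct
A tract was present at a gene with a large change (RPL11) and at genes with a small one (RPS16, RPLP1). RPL11 has a further annotated start and RPL32 has 2 further ones, all without a tract. RPL39 had the longest tract of the 48, 22 bases. CTTCCG, the reverse complement of the core that ETS factors are known to bind, was on either strand of the window from 250 bases before the start to 50 from it on in 33 of the 48 (68.8%), against 22.6% of all genes, and it can overlap the tract. For the 33 tested genes with a start at a C and at least 4 pyrimidines after it, the median pseudopod change was 0.30 (log2). It was 0.19 for the 14 tested genes without such a start, a description with no test. Some of these 14, among them RPL19 and RPS7, have a tract that overlaps a start but does not meet that rule. A match is a description of the letters and not a mapped start or a binding site.

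Whether ribosomal protein messenger RNA was richer in pseudopods was asked first over all 6 lines. Ribosomal protein genes were higher in pseudopods together and by a small amount: 38 of 54 (70.4%) were called higher and 0 lower, against 29.5% of all 15399 genes tested called higher and 20.8% lower (limma, 12 group means, Benjamini-Hochberg adjusted p under 0.05 over all genes). Their median log2 change was 0.27, against 0.05 for all genes. One of the 38, RPLP2, passed the minimum level only through the fraction in which it was higher; without it 37 of 53 (69.8%) were higher, with a median of 0.24. A log2 change here is the difference of log2(intensity + 16), averaged over the lines with equal weight. All 54 had a positive change (57.2% of all genes did), 34 had it in each of the 6 lines, and 33 of those 34 were called. Only 4 reached 1.5-fold. These counts moved with the scaling between arrays: quantile normalization gave 28 higher (33.7% of all genes were), with a median of 0.15 against 0.09 for all genes. Equal array medians gave 46 higher (41.1% of all genes were), with a median of 0.36 against 0.14. Neither gave any lower. The share of calls that were higher over all genes was 58.7% as deposited, 64.9% after quantile normalization and 71.5% with equal medians. Without MDA231 and MDA435, the lines in which CDH1 was most uneven, 29 of 54 were higher and 0 lower. Of all 14900 genes then tested, 30.8% were higher and 3082 were lower.

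**Figure D1:**
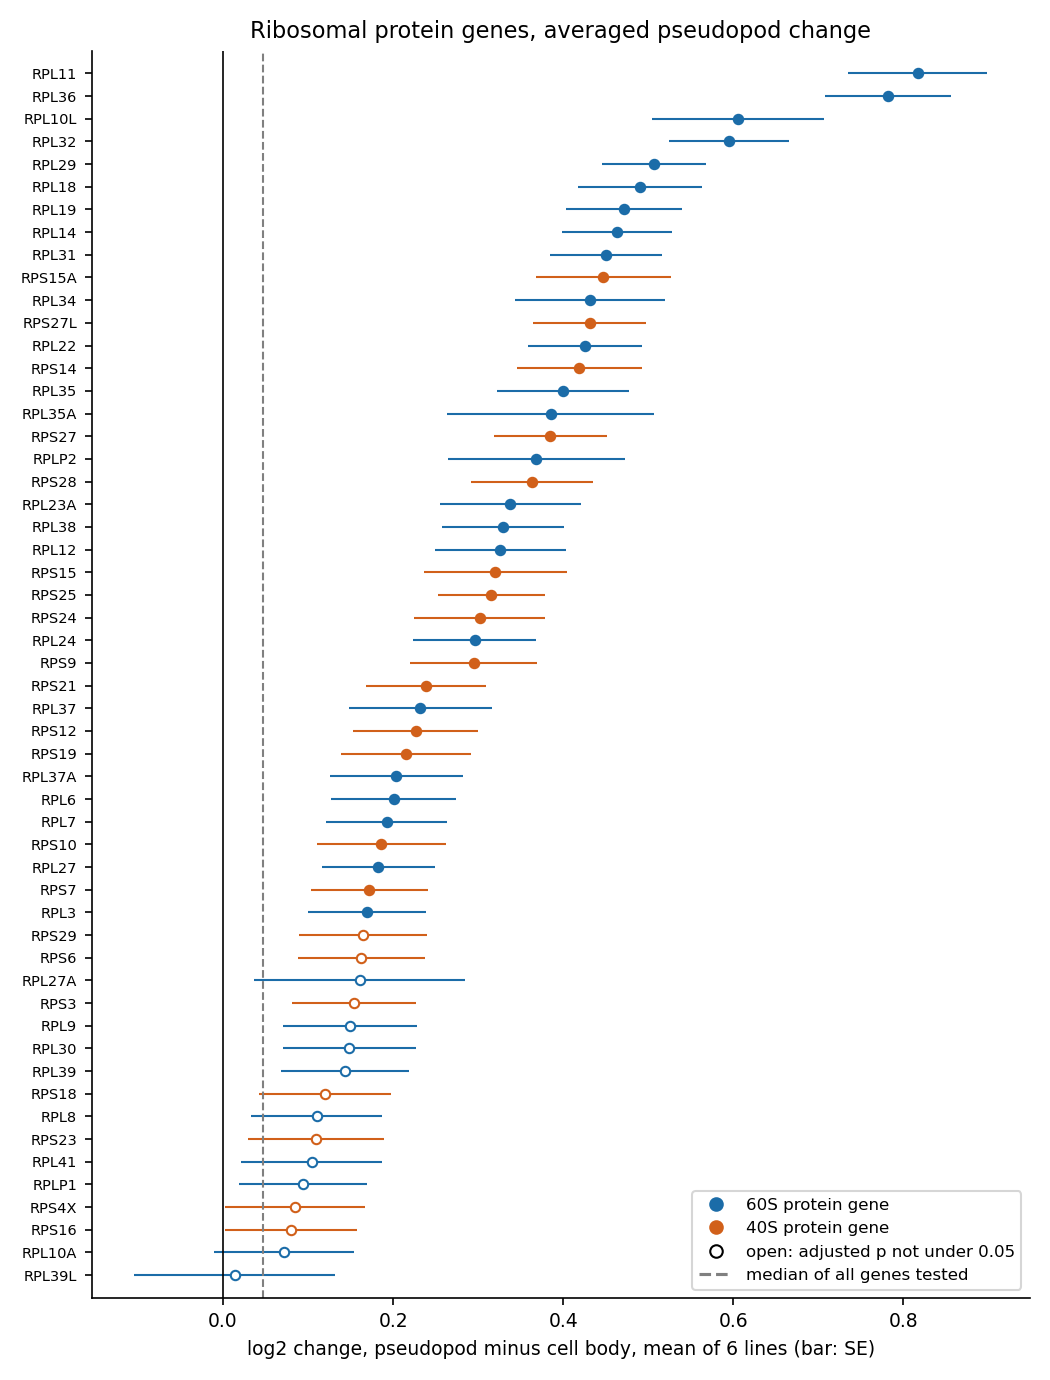
Log2 change, pseudopod minus cell body, averaged over 6 lines, for the 54 tested ribosomal protein genes (x axis; bars are SE; blue 60S, orange 40S; filled points have an adjusted p under 0.05; dashed line, median of all genes tested, 0.05). Every point lies to the right of 0, from RPL39L (0.01) to RPL11 (0.82), and the 16 open points crowd the lower part.

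RPL11, a large subunit protein that with RPL5 and an rRNA of that subunit also binds MDM2, the ubiquitin ligase of p53, had the largest change. In U87 its intensity was 4454, 3981 and 2891 in the pseudopod arrays and 1178, 2001 and 1107 in the cell body arrays. In HT1080 it was 4788, 3439 and 3886 against 2032, 1632 and 2113. In DU145 it was 2022, 2555 and 1925 against 1128, 1190 and 1277. In each of the 6 lines all 3 pseudopod arrays lay above all 3 cell body arrays, which among the 54 genes was also seen for RPL14 and RPL32. Over the lines RPL11 rose by 0.82 ± 0.08 (log2, SE), 1.76-fold (limma, adjusted p = 1.71e-09).

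RPL36, a large subunit protein, rose by 0.78 ± 0.07 (limma, adjusted p = 5.64e-10). Its pseudopod arrays ran from 1906 to 4210 (median 2418) and its cell body arrays from 956 to 2032 (median 1479). The groups overlapped only in MDA231, where the cell body array of replicate 2, at 2032, lay above the pseudopod array of replicate 1, at 1984. RPL32, a large subunit protein, ran from 1666 to 3517 (median 2260) in pseudopods and from 1161 to 1941 (median 1540) in cell bodies, without overlap in any line. It rose by 0.60 ± 0.07 (adjusted p = 4.14e-08, limma).

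RPL29, RPL18, RPL19 and RPL14, also of the large subunit, rose by 0.51, 0.49, 0.47 and 0.46, each with an SE of 0.06 to 0.07 and in all 6 lines. RPL14 was at 2459 to 4781 (median 2868) in pseudopods and 1890 to 2716 (median 2209) in cell bodies, with no overlap in any line. RPL19 was at 3194 to 6614 against 2303 to 3554, with no overlap in 5 of 6 lines. The 8 largest changes were all of large subunit genes. The subunits overlapped widely all the same. Of 33 large subunit genes 24 were higher (median change 0.33), and of 21 small subunit genes 14 (median change 0.23). The difference was not tested. Their brightness differed as well, with a median of the mean intensities of 3549 units (large) and 4134 units (small). The largest changes of the small subunit were in RPS15A (0.45 ± 0.08), the paralog RPS27L (0.43 ± 0.07) and RPS14 (0.42 ± 0.07), a protein of the platform of the subunit.

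The 8 smallest changes were in RPL39L, RPL10A, RPS16, RPS4X, RPLP1, RPL41, RPS23 and RPL8, between 0.01 and 0.11, and none of them was called. RPS16, a small subunit protein, had an average change of 0.08 ± 0.08 (limma, adjusted p = 0.416). In U251 its pseudopod arrays were at 7082, 5169 and 6377 and its cell body arrays at 6134, 5601 and 8253. In MDA435 they were at 4893, 5389 and 4272 against 4933, 3884 and 5589. The fractions overlapped in all 6 lines. RPL10A, of the large subunit, changed by 0.07 ± 0.08 (adjusted p = 0.503, limma), with pseudopod arrays from 3287 to 8374 and cell body arrays from 3124 to 7032. RPS4X, an X-linked small subunit protein, gave 0.08 ± 0.08, and RPS23, which lies at the decoding centre, 0.11 ± 0.08. Under quantile normalization 7 of these 8 genes, all but RPL39L, had a small negative change (-0.02 to -0.07), so their sign depends on the scaling. Other settings called some of them higher (limma): RPL8 with equal array medians (0.21, adjusted p = 0.046), RPL8, RPL41 and RPLP1 with array weights (0.16, 0.17 and 0.16), RPL10A and RPS23 with the mean of all probe sets (0.31 and 0.18), and RPS16 without marked probe sets (0.49).

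**Figure D2:**
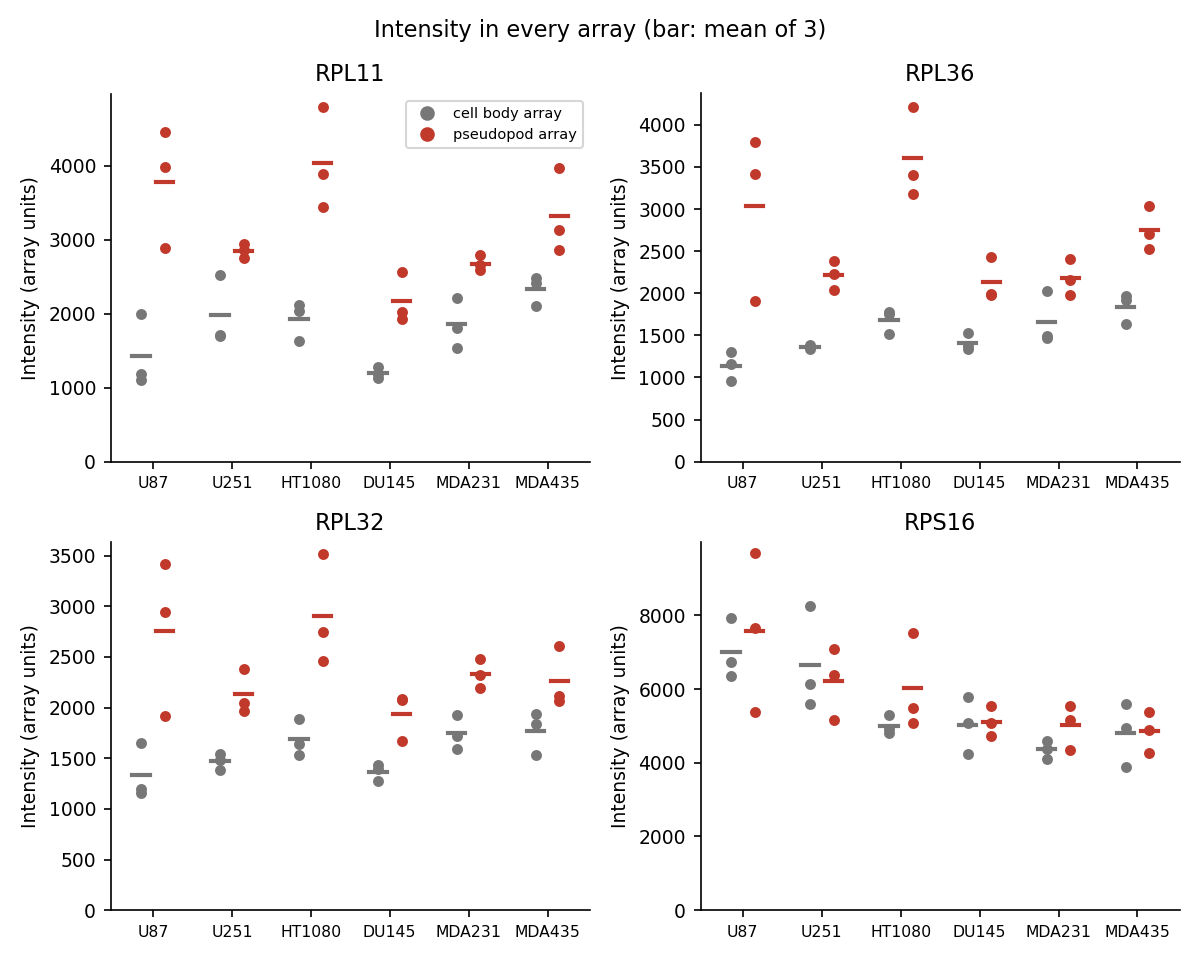
Intensity (y axis, array units from 0) of RPL11, RPL36, RPL32 and RPS16 in every array, by line (x axis). Grey points are cell body arrays, red points pseudopod arrays, and bars the mean of 3 arrays. Red lies above grey in every line for RPL11 and RPL32, whereas red and grey overlap in every line for RPS16.

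Genes with further known roles lay at various places in the range of changes. RPS6, the target of the S6 kinases, changed by 0.16 ± 0.07 (limma, adjusted p = 0.0704) and was called (adjusted p = 0.0108, limma) with equal array medians. RPS19, the gene most often mutated in Diamond-Blackfan anaemia, rose by 0.22 ± 0.08 (adjusted p = 0.0196, limma), a call that was lost with the mean of all probe sets (0.08, adjusted p = 0.290), under quantile normalization (0.07, adjusted p = 0.0568), and without HT1080 (0.0832), MDA231 (0.058) or MDA231 and MDA435 together (0.0854). RPL38, known for its part in the translation of selected messenger RNAs, rose by 0.33 ± 0.07. Of the acidic stalk proteins, which recruit elongation factors, RPLP1 changed by 0.09 ± 0.08 and was not called. RPLP2 was measured only by a dim probe set, at 15.8 to 96.4 in pseudopods and 14.1 to 28.7 in cell bodies, and its higher value in pseudopods is given as a description only, since it reached the minimum level through pseudopod groups alone.

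The change was then taken in each line. In U87, 23 of 54 genes were higher (42.6%; 11.7% of all genes were), with a median of 0.41. In HT1080, 18 were higher (33.3%, against 12.8% of all genes), with a median of 0.43. In U251, 5 were higher (9.26%, against 5.36%), with a median of 0.09, and in MDA435, 2 (3.70%, against 2.96%), with a median of 0.16. In DU145, 1 was higher, RPL11 (1.85%, against 0.825%), with a median of 0.15. In MDA231, 0 of 54 passed (8 at an unadjusted p under 0.05), against 1.18% of all genes higher. The median was nevertheless 0.28, and all 54 changes were positive (51% over all genes). None was lower in any line, whereas of all genes 11.8% were lower in U87, 9.33% in U251, 12% in HT1080, 2.16% in DU145, 4.9% in MDA231 and 8.81% in MDA435. Counts near the share over all genes, as in U251, MDA435 and DU145, say nothing about ribosomal protein genes in particular.

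**Figure D3:**
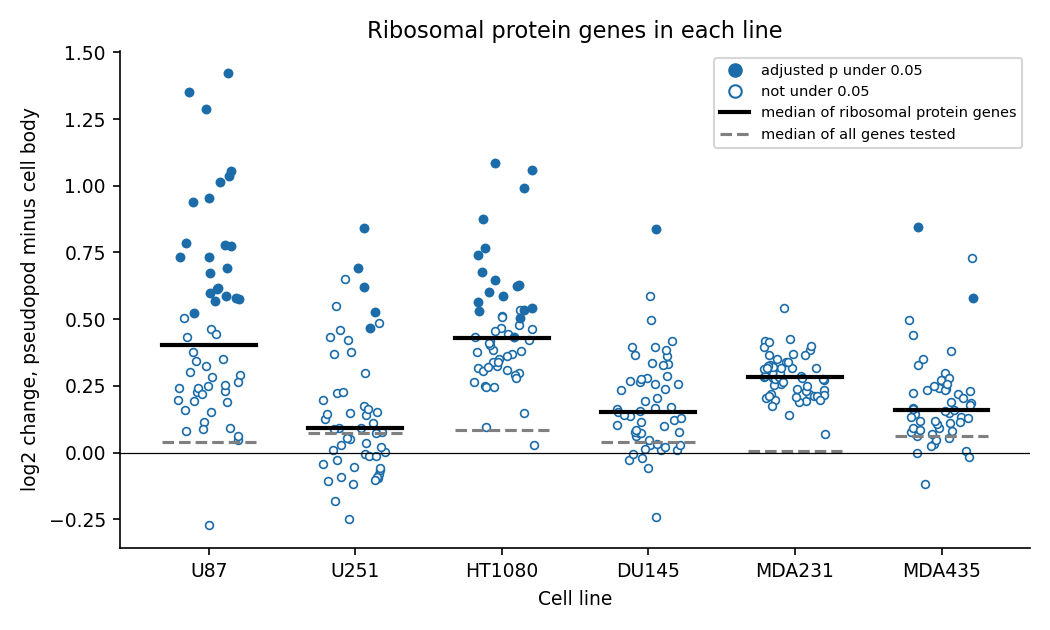
Log2 change, pseudopod minus cell body (y axis), of the 54 ribosomal protein genes in each line (x axis). Each point is a gene, filled where its adjusted p is under 0.05; the black bar is their median and the dashed bar the median of all genes tested. The black bars stand highest in HT1080 (0.43) and U87 (0.41) and lowest in U251 (0.09). In U251, 37 of 54 points are positive (59.1% of all genes were).

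Seen over the arrays themselves, all 3 pseudopod arrays lay above all 3 cell body arrays for 37 of 54 genes in HT1080 (29.5% of all genes did), 28 in MDA231 (9.11% of all genes), 15 in U87 (17%), 15 in DU145 (16.7%), 14 in U251 (22%) and 9 in MDA435 (12.3%). The reverse order was seen for 0 of the 54 in each line (11.9% to 18.4% of all genes). MDA231 had no calls and many genes without overlap, while U87 had many calls and few such genes. In U87 the third pseudopod array stood apart: the median intensity of the ribosomal protein genes was 6563 and 5348 in pseudopod replicates 1 and 2 and 3621 in replicate 3, against 3370 to 3967 in the cell body arrays. RNA45SN5 was at 85.2 and 15.3 in those replicates and at 408 in replicate 3. Without replicate 3 the count of calls in U87 was 39 (9 in U251 and 3 in DU145, through the shared spread), and without replicate 1 or 2 the U87 count was 14 each time. In HT1080 it was 8 without pseudopod replicate 1 and 9 without cell body replicate 2.

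The genes with the largest changes in a line were mostly those of the average. In U87, RPL11 rose by 1.42 ± 0.20, RPL36 by 1.35 ± 0.18 and RPL35A by 1.29 ± 0.30. RPL35A, a large subunit protein mutated in some cases of Diamond-Blackfan anaemia, was at 7183, 6360 and 4084 in the U87 pseudopod arrays and 2205, 3101 and 1856 in the cell body arrays, without overlap. In U251 it was at 1269, 4508 and 4889 against 3854, 4028 and 3049, where pseudopod replicate 1 lay far below all others, and its change was -0.25 ± 0.30. On this probe set its averaged rise (0.39 ± 0.12, adjusted p = 0.00917, limma) was lost without U87 (0.21, adjusted p = 0.212), with the lines as units (0.0743) and under quantile normalization (0.0929). On a second bright RPL35A probe set (mean 2964) the averaged change was 0.44 ± 0.07, and it was positive in all 6 lines, U251 among them. Dim RPL35A probe sets went both ways.

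In U251 the largest rises were in RPL34 (0.84 ± 0.22), RPL36 (0.69 ± 0.18) and RPL29 (0.62 ± 0.15). On the dimmer probe set of RPL29 the U251 change was 0.33 and was not called (adjusted p = 0.244, limma). RPL34, a large subunit protein with a tract start, was at 3827, 3212 and 3987 in U251 pseudopods and at 1764, 2075 and 2305 in the cell bodies. In MDA435 it was at 2802, 3284 and 2413 against 3303, 2572 and 3350, with overlap. In HT1080 the largest rises were in RPL36 (1.08 ± 0.18), RPL11 (1.06 ± 0.20) and RPL10L (0.99 ± 0.25). The single call in DU145, RPL11 (0.84 ± 0.20, adjusted p = 0.0203, limma), was lost without DU145 pseudopod replicate 1 or 2 or cell body replicate 1 or 2. The 2 calls in MDA435, RPL10L (0.85 ± 0.25) and RPL36 (0.58 ± 0.18), fell to 0 without pseudopod replicate 2 or cell body replicate 1 and to 1 without pseudopod replicate 3 or cell body replicate 2. Leaving out any single U251 array except cell body replicate 3 left 3 of the 5 calls in U251.

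No difference between lines was detected for these genes. The change was compared across the 6 lines by a moderated F test, which passed for 0 of 54 (7 at an unadjusted p under 0.05), and for 1.18% of all genes (limma). The lowest adjusted p was 0.127, for RPL29, which rose by 1.04 ± 0.15 in U87 and changed by 0.16 ± 0.15 in MDA435. RPL22, a large subunit protein, came next, with 1.06 ± 0.16 in U87 and 0.15 ± 0.16 in U251, followed by RPL36, RPL34 and RPL11. Each of these 5 had its largest change in U87. Without U87 pseudopod replicate 3 the test passed for 5 of the 54. In simulated data with these group sizes, a change of 1.5-fold was recovered for 85% of genes in the average over lines. In U87 alone it was recovered for 21%. The simulation changed far fewer genes than were called here and had no shift shared by the genes of an array. These shares therefore need not hold for the real arrays.

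How bright a probe set was moved with the size of the change. Brightness depends on the probes as well as on the RNA, so it is not used to rank genes by abundance. Of the 54 genes, 50 had a mean of at least 1500 intensity units; 36 of these (72%) were higher, and so were 58.9% of the 1099 other genes at that level, of which 180 were lower. The medians were 0.27 and 0.20. Between 1500 and 2500 units 4 of 4 ribosomal protein genes were higher (61.9% of the others), between 2500 and 3500 units 13 of 13 (58.8%), between 3500 and 4500 units 15 of 21 (39.6%), and above 4500 units 4 of 12 (33.3%, and 4 of 14 others, 28.6%). The 8 smallest changes, apart from RPL39L, were in genes with a mean of 4380 units or more, and RPL11, RPL36 and RPL32 had means of 2461, 2086 and 1975. Whether the array signal levels off at the top of its range was not tested.

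Probe sets of the same gene show this without a change of gene. Of 16 genes with more than 1 probe set at or above 1000 units, the dimmest changed more than the brightest in 13. Over all 16 genes the median difference, dimmest minus brightest, was 0.07. For RPL10A the change was 0.07 on the probe set used (mean 4589) and 0.54 on the dimmer one (mean 1654). For RPS16 it was 0.08 (mean 5640) and 0.49 (mean 3291). For RPS21, a small subunit protein, it was 0.24 (mean 4204) and 0.72 (mean 1490), and for RPS7, also of the small subunit, 0.17 (mean 3716) and 0.52 (mean 1436). RPL14 went the other way, with 0.46 and 0.24. With the dimmer probe set for each gene, RPL10A (adjusted p = 5.40e-08, limma) and RPS16 (5.46e-07) were called. In that setting 40 of 54 were higher (29.5% of all genes were).

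**Figure D4:**
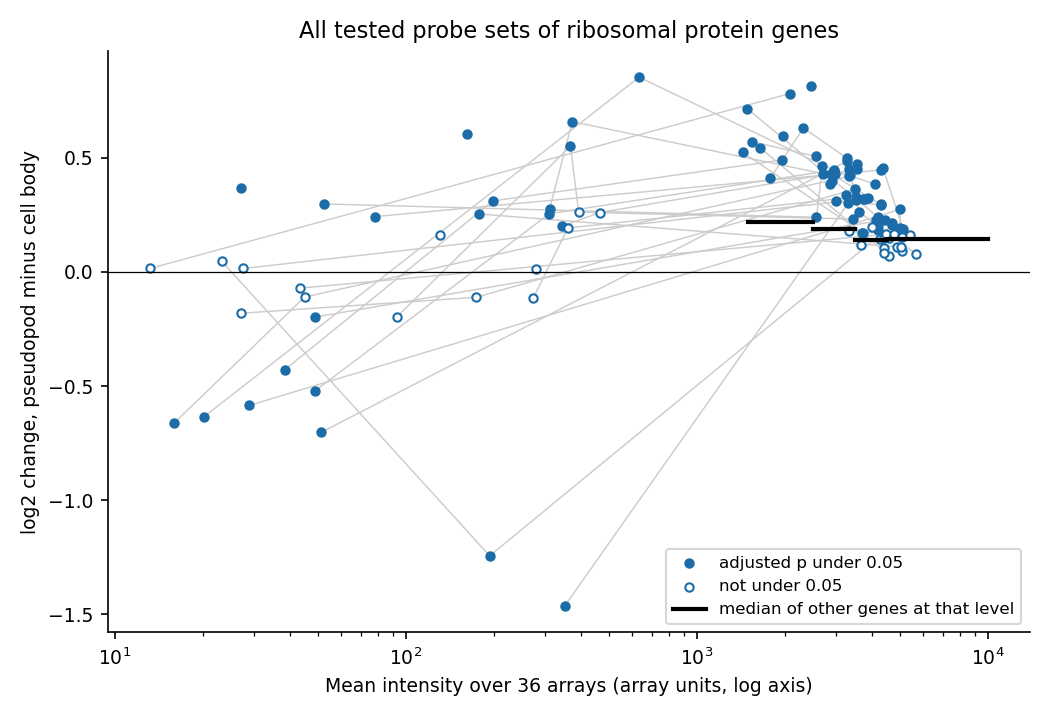
Mean intensity over 36 arrays (x axis, log scale) and averaged log2 change (y axis) of the 107 tested probe sets of ribosomal protein genes. Filled points have an adjusted p under 0.05, grey lines join probe sets of a gene, and black bars are medians of other genes at that level. Above 1000 units no filled point lies under 0, the changes shrink towards the bright end, and 9 filled points below 1000 units lie under 0.

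Dim probe sets of the same genes went both ways. Of 72 probe sets at or above 1000 units, 55 were higher and 0 lower (of other probe sets at that level, 57.1% were higher and 17.6% lower). Of 35 below 1000 units, 12 were higher and 9 lower, with a median of 0.02 (other probe sets, 24.2% and 23.5%). Among the rises, chosen after their values were seen, a dim RPL35A probe set rose by 0.85 ± 0.11 (median 474 in cell bodies and 754 in pseudopods) and a dim RPS27L one by 0.66 ± 0.12. The 9 that fell, named after their values were seen, belong to RPS24, RPL37A, RPS16, RPS14, RPL35A, RPL7, RPS15A, RPL18 and RPS19, all genes whose brightest probe set was called higher except RPS16. The dim RPS24 probe set was at 55.5 to 346 in pseudopods (median 160) and 188 to 866 in cell bodies (median 541), and fell by 1.46 ± 0.14, whereas the bright one rose by 0.30 ± 0.08. For RPL37A they fell by 1.24 ± 0.14 and rose by 0.20 ± 0.08. What these dim probe sets read was not tested. The mean of all probe sets per gene gave 29 of 54 higher and 2 lower. Of all 15399 genes, 26.3% were higher and 3371 were lower. Of the 54 probe sets used, 43 are marked in the array design as shared between transcripts, and ribosomal protein genes are known to have many processed pseudogenes. Without such probe sets 27 genes were left, 14 higher and 3 lower. Of all 12216 genes left, 25.7% were higher and 2675 were lower.

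The level of the ribosomal protein genes moved with the top of the intensity scale of each array. The 99th percentile over all probe sets was 2609 to 3997 (median 2906) in pseudopod arrays and 2235 to 3521 (median 2757) in cell body arrays. The median intensity of the ribosomal protein genes was 3248 to 6563 (median 3889) and 2712 to 4542 (median 3325). The 3 highest 99th percentiles (3997, 3809 and 3685) were those of U87 pseudopod replicates 1 and 2 and HT1080 pseudopod replicate 1, and so were the 3 highest ribosomal protein medians (6563, 5348 and 5818). Median intensity over all probe sets went the other way, at 18.2 to 27.4 in pseudopods and 22.2 to 30.6 in cell bodies. The part of this spread of the scale in the results was tested only through the 2 other scalings given above.

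**Figure D5:**
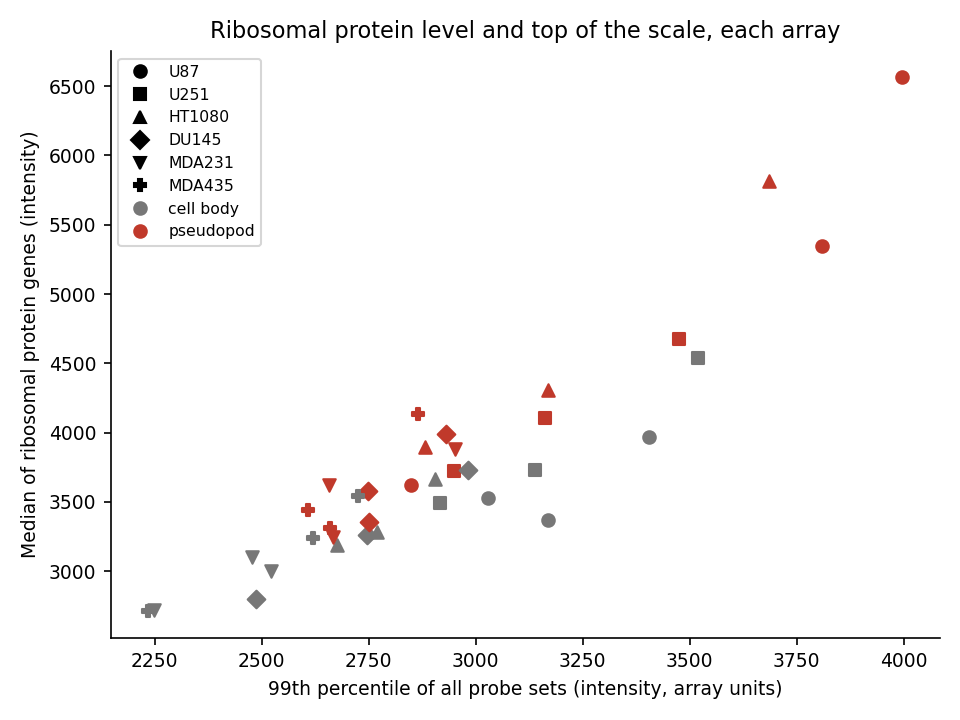
For each of 36 arrays, the 99th percentile of all probe sets (x axis) and the median intensity of the 54 ribosomal protein genes (y axis), in array units. Shapes are lines, red is pseudopod and grey cell body. Arrays with a higher top of the scale have a higher ribosomal protein median, from 2712 to 6563, and the ribosomal protein genes are themselves among the brightest probe sets.

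Levels in the cell bodies were compared between lines as well. The moderated F test between the 6 cell body groups passed for 28 of 54 (51.9%) and for 80.6% of all genes, and for 17 of 54 without U251 cell body replicate 3, whose ribosomal protein median (4542) was the highest of the cell body arrays. Paralogs led the list. RPL39L, the copy of RPL39 known from testis and some cancers, had the largest F. It was at 0.3 to 1.0 in all 6 HT1080 arrays and at 140 to 216 in the cell bodies of U87, 336 to 441 in DU145 and 352 to 676 in MDA435. RPL39 itself was at 2925 to 5734 over all cell body arrays, and at 3565 to 4050 in those of HT1080. RPS27L, a copy of RPS27 known as a p53 target, came next. In cell bodies it was at 2711 to 3149 in U87, 2807 to 3359 in HT1080 and 2334 to 3135 in MDA435, ranges that overlap. It was at 1504 to 1588 in DU145 and 1435 to 1551 in MDA231, below those 3 lines. U251, at 1802 to 2218, lay in between. A link of these levels to p53 was not tested.

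The change of the paralogs between fractions is given gene by gene, and differences between them were not tested. RPL39L was not called (0.01 ± 0.12, limma, adjusted p = 0.937), with 3 lines up and 3 down, and its sign turned when MDA231 or MDA435 was left out. Its average includes HT1080, where it was at 0.3 to 1.0. RPS27L rose by 0.43 ± 0.07 and RPS27 by 0.38 ± 0.07. RPL10L, an autosomal copy of RPL10 known from male germ cells, rose by 0.61 ± 0.10 (adjusted p = 1.07e-05, limma). It was dim, at 81.3 to 428 in pseudopods (median 174) and 67.7 to 254 in cell bodies (median 111), and RPL10, with which it shares sequence, was not analysed here, which leaves the RPL10L values uncertain. RPL3L, the copy known from heart and skeletal muscle, was at 1.8 to 13.2 and 2.0 to 29.3 and was not tested. RPL36A was at 1.3 to 13.4 in pseudopods and 4.0 to 31.2 in cell bodies, below the minimum level in all 12 groups, and was not tested. RPL36AL, a copy of it outside the name rule, rose by 0.59 ± 0.07 from 1889 to 2955 (medians). All 6 paralogs outside the name rule were higher, among them RPL26L1 (0.59 ± 0.07) and RPL22L1 (0.56 ± 0.12).

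Other genes of the pathway were counted in the same fit and are read against the 29.5% of all genes called higher and 20.8% called lower, and, for genes of at least 1500 units, against the 58.9% higher among genes at that level that are no ribosomal protein genes. Of 14 other messenger RNAs with a TOP tract, 10 were higher and 0 lower (median 0.23), or 9 of the 13 of at least 1500 units. The called ones included EIF3F (0.43 ± 0.06), a subunit of initiation factor eIF3, the ribosome-associated NACA (0.42 ± 0.06), FAU (0.26 ± 0.07), whose product is cleaved to the small subunit protein RPS30, and PABPC1 (0.23 ± 0.06), the poly(A)-binding protein. EEF1A1, the elongation factor that brings tRNA to the ribosome, gave 0.11 ± 0.07 and TPT1 0.10 ± 0.08, neither called. EEF2, the translocation factor, rose by 0.17 ± 0.07. Of 57 translation initiation and elongation factors, 40 were higher and 2 lower (median 0.26), or 22 higher and 0 lower of the 28 of at least 1500 units.

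Mitochondrial ribosomal proteins, which build a separate ribosome and whose messenger RNAs are not of the TOP class, rose nearly throughout: 72 of 75 were higher and 0 lower, with a median of 0.45. MRPL40 rose by 0.75 ± 0.08 and MRPL41 by 0.70 ± 0.07. The difference from the cytosolic genes was not tested. MRPL32 (0.04 ± 0.07), MRPL42 (0.10 ± 0.07) and MRPL55 (0.12 ± 0.07), the other 3, were not called. Their probe sets were mostly below the 1500 units used above, so the brightness of the 2 sets of genes differs as well.

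Of 40 ribosome assembly factors, 23 were higher and 2 lower (median 0.19). NOB1, the nuclease that trims the small subunit rRNA, rose by 0.61 ± 0.11 and NOP10, of the pseudouridylation particle, by 0.60 ± 0.07. TAF1D, of the RNA polymerase I machinery, fell by 1.68 ± 0.10 from 342 to 93.2 (means). Of 8 dedicated ribosomal protein chaperones, which escort single ribosomal proteins to the assembly sites, 7 were higher and 0 lower (median 0.39), led by GRWD1 (0.92 ± 0.10), the RPL3 chaperone, whose client RPL3 rose by 0.17 ± 0.07. Of 4 snoRNA host transcripts with a TOP tract, 3 were higher, led by EPB41L4A-AS1 (0.58 ± 0.12), and GAS5 fell by 0.41 ± 0.08 at a low level (39.3 to 26.2, means).

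Of 20 regulators of TOP messenger RNAs and mTORC1, 12 were higher and 2 lower (median 0.20). EIF4EBP1, the repressor of cap-dependent translation that mTORC1 inactivates, rose by 0.93 ± 0.08, EIF4EBP2 by 0.63 ± 0.06 and the S6 kinase gene RPS6KB2 by 0.60 ± 0.07. LARP1 rose by 0.21 ± 0.06. LARP6, a related RNA-binding protein reported to carry ribosomal protein messenger RNAs to protrusions, rose by 0.57 ± 0.12, from 380 to 1531 (median 895) in cell bodies to 472 to 2558 (median 1356) in pseudopods. The lowest LARP6 value of each fraction was in an MDA231 array with high CDH1 (CB replicate 2 and PS replicate 3). TIA1, which represses TOP messenger RNAs under stress, fell by 0.32 ± 0.06. Of the 3 tested genes of the RPL5 and RPL11 surveillance of p53, CDKN1A rose by 0.57 ± 0.09, and MDM2 (0.04 ± 0.10) and MDM4 (-0.05 ± 0.06) were not called. The nuclear RNA MALAT1 fell by 0.69 ± 0.14, and the part of nuclear and endoplasmic reticulum RNA, less of it in the pseudopod arrays, in the ribosomal protein result was not tested.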

How the data were processed

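Total RNA (100 ng per array) was amplified in 2 cycles, labelled with biotin and hybridised, per the labels' protocols. The values the authors deposited are linear intensity values, 1 per probe set and array, from 0 to 9883.2 over 54593 probe sets. Their mean, after leaving out 2% at each end, was between 149.18 and 149.6 in every array, as after scaling to a common mean. RMA and Partek appear in the submitters' processing notes without a role; which of them, if either, made these linear values was not stated there, and RMA gives log2 values. For arrays, their number limits the precision.

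Of the probe sets, 41074 had 1 gene symbol, 1798 several and 11721 none; 41020 were updated through Entrez numbers (RefSeq, GRCh38.p14). For each gene the probe set with the highest mean was used, and 15399 genes with a group mean of at least 24.4 units, the median of all values, were tested. limma 3.58.1 (R 4.3.3) was fitted to log2(intensity + 16) with 12 group means and 24 residual degrees of freedom; folds understate the change of dim genes. Standard errors, where printed, are from this fit. For a probe set other than the one used, they are from a fit of the same form to all probe sets with 1 gene symbol. The fits were tested on simulated data: 85% of 1.5-fold and 96% of 2-fold changes were recovered in the average over lines, with 8 false calls among 15591 genes. The simulated arrays had few changed genes and independent noise, unlike the real ones.

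The ribosomal protein genes, the gene lists, the tests and the rule for named genes were chosen with earlier results of these data known. Named genes are the 8 highest and 8 lowest averaged changes, the 3 largest called changes of a line, the 5 largest F values of each F test, up to 3 called genes per list, and genes fixed by name; others are given as examples chosen after their values were seen. Alternatives were another scaling, offset, filter, probe set rule, array weights, the replicate number as a block, the lines as units, and arrays or lines left out. Arrays of the same number were not treated as pairs in the main fit. Of 18 same-numbered pairs, 4 correlated above 0.1, which cannot show whether they shared a culture.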

Additional observations from a re-analysis of the deposited data

How the results depend on the processing

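Averaged over the lines, the count of higher ribosomal protein genes lay between 28 and 49 of the 53 to 56 tested under the alternatives run, except the one without marked probe sets, which tested 27 genes (14 higher, 3 lower). The share of all genes called higher lay between 23% and 41.1% under the alternatives. The 1 gene called lower without a filter in the average was RPL36A, below the minimum level. Counts within a line, with 3 arrays per group, are less stable.

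Equal array medians gave 3 higher in U251. Quantile normalization gave 10 higher in U251, 4 in DU145, 1 lower in HT1080 and 3 differences between lines, and it turned the averaged change of RPL10A (-0.0698), RPL41 (-0.0327), RPL8 (-0.0328), RPLP1 (-0.0396), RPS16 (-0.0377), RPS23 (-0.0245) and RPS4X (-0.0554). An offset of 64 gave 2 higher in DU145 and 1 difference between lines. No filter gave 1 lower in the average, in U251 and in DU145. The mean of all probe sets gave 2 lower in the average and 1 each in U251, DU145 and MDA435. Without marked probe sets the lines gave 11 higher and 3 lower in U87, 2 and 3 in U251, 11 and 1 in HT1080, 1 and 2 in MDA231, and 2 lower each in DU145 and MDA435. Array weights gave 13 higher in U251, 34 in HT1080, 9 in DU145, 12 in MDA231 and 32 in MDA435, and 4 differences between lines. With the replicate number as a block, 36 were higher in the average, 21 in U87, 15 in HT1080, 3 in U251, and 0 each in DU145 and MDA435; 3 of 18 pseudopod arrays correlated best with their own number. RPL39L turned to -0.067 without MDA231, -0.0491 without MDA435 and -0.166 without both. Without the 2 MDA231 arrays with high CDH1, chosen after seeing the data, DU145 gave 2 higher and the average 36. The cause of these changes was not tested, beyond the smaller number of genes without marked probe sets.

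Leaving out each array in turn gave 34 to 44 higher and 0 to 1 lower in the average, 14 to 39 higher in U87, 3 to 9 in U251, 8 to 24 in HT1080, 0 to 3 in DU145, 0 to 3 in MDA435 and 0 in MDA231, 0 to 1 lower in U251, HT1080 and DU145, 0 to 5 differences between lines and 17 to 36 cell body differences. The averaged change of RPL39L ran from -0.0355 to 0.0741.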
